A study of Homo sapiens with 9 samples.

Results

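The apolipoprotein L genes APOL1, APOL2, APOL3, APOL4 and APOL6 lie on chromosome 22 and were taken by their gene symbols from a table of 59609 genes. All 5 symbols were found, and 4 of the 5 genes passed the filter on low counts, against 16964 genes of the whole table. The data are RNA sequencing of SUIT2 cells, a human line established from a pancreatic cancer. The 9 libraries formed 3 groups of 3: control, interferon beta at 100 U/mL for 6 h and interferon beta at 100 U/mL for 24 h. Interferon beta is a type I interferon, the cytokine family that cells release on sensing virus or misplaced DNA. The comparisons ask which transcripts change at each time and between the times.

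Apolipoprotein L proteins are a family that expanded in primates by tandem duplication. They share helical regions that insert into membranes. APOL1 is secreted, travels on high-density lipoprotein and kills African trypanosomes by forming a channel in their membranes. APOL2, APOL3 and APOL6 lack a signal peptide and stay inside the cell: APOL3 dissolves the membranes of bacteria in the cytosol, and APOL6 carries a region like the BH3 segment of cell death proteins and can trigger apoptosis when overproduced. The role of APOL2 is less well defined, and little is known of APOL4. Several of these genes are known to respond to interferons.

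Estimated counts totalled 15101734 to 19632741 per control library, 16799278 to 37420457 for the 6 h group and 25270387 to 40384407 for the 24 h group, the deepest on average. The labels state no duration for the controls. Whether time in culture differed between the groups is therefore unknown, and its part in any change cannot be told apart from that of interferon. They also do not state whether the 3 libraries of a group came from different cultures. The p-values therefore describe variation among these libraries, which may be technical. All results come from this cell line alone. Of 10 pancreatic ductal epithelial markers 9 were tested, with summed levels between 4984 and 5038 CPM in control, between 5597 and 5897 at 6 h and between 5547 and 5675 at 24 h. CPM, counts per 1000000 counts, are given after TMM normalization of library sizes. Of 18 markers of kidney, leukocyte, endothelial, fibroblast and acinar cells 5 were tested and 5 had no read in any library. Their sum was between 17.6 and 20.9 CPM in control, between 47.7 and 50.8 at 6 h and between 35.8 and 36.6 at 24 h, most of it from PODXL, which epithelial cancer cells also make.

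The genes stand at 2 places. APOL6 (ENSG00000221963, plus strand, 35648446 to 35668404 on hg38) is apart from the other members. APOL3 (ENSG00000128284, minus strand, 36140330 to 36166177), APOL4 (ENSG00000100336, minus strand, 36189124 to 36204840), APOL2 (ENSG00000128335, minus strand, 36226209 to 36239954) and APOL1 (ENSG00000100342, plus strand, 36253071 to 36267530) follow one another. No gene of the deposited table overlaps any of the 5. APOL5, the remaining gene of the family in this region, was not a member.

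APOL1, APOL2, APOL3 and APOL6 were far above control after 6 h of interferon beta. All 4 were lower at 24 h than at 6 h but still above control. The rises at 6 h ran from 9.61-fold for APOL2 to 32.3-fold for APOL3. At 24 h the remaining rises ran from 1.43-fold for APOL2 to 6.403-fold for APOL3. APOL4 stayed at or near 0 reads throughout. In bulk RNA, a larger number of cells with a transcript and more transcript per cell cannot be told apart.

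APOL1, the secreted member, had 32.4, 29.9 and 29.7 CPM in the control libraries, 364.6, 387.6 and 378.7 at 6 h and 110.03, 106.3 and 106.1 at 24 h. The 3 groups did not overlap, with control lowest and 6 h highest. The rise at 6 h was 12.3-fold, or 3.62 (SE 0.0419) as a log2 fold change, with an adjusted p of 1.73e-18 by edgeR's quasi-likelihood test. At 24 h it stood at 1.81 (SE 0.0426, adjusted p = 1.8e-14 by edgeR) against control. Between the times it fell by 1.81 (SE 0.0347, adjusted p = 1.86e-15 by edgeR), so on the log2 scale the level at 24 h lay midway between control and 6 h.

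APOL2, an intracellular member, had 25.7, 24.6 and 24.8 CPM in control, 241.003, 235.2 and 244.9 at 6 h and 35.5, 35.7 and 35.9 at 24 h. Control and 24 h libraries were close to each other without overlap, and the 6 h libraries were far above both. Against control the log2 fold change was 3.26 (SE 0.0366, adjusted p = 1.32e-18 by edgeR) at 6 h. It was 0.51 (SE 0.0409, adjusted p = 5.13e-08 by edgeR) at 24 h, or 0.92 in the authors' normalized table with a pseudocount of 1, where the median of all genes was 0.37. From 6 h to 24 h APOL2 dropped 6.73-fold, a log2 fold change of -2.75 (SE 0.0319, adjusted p = 2.31e-17 by edgeR).

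APOL3, the member that acts on cytosolic bacteria, was the least abundant of the 4, with 1.21, 1.12 and 1.98 CPM in control from estimated counts of 20.2, 22.3 and 30.3. It reached 43.9, 45.7 and 45.1 CPM at 6 h and stood at 8.76, 8.54 and 9.39 at 24 h. The groups did not overlap, and the control libraries had the widest relative spread of any group. The log2 fold change was 5.01 (SE 0.108, adjusted p = 3.42e-15 by edgeR) at 6 h and 2.68 (SE 0.136, adjusted p = 2.51e-10 by edgeR) at 24 h. In the authors' normalized table with a pseudocount of 1, which pulls low values together, the rise at 6 h was 4.33. From 6 h to 24 h APOL3 fell 5.04-fold, a log2 fold change of -2.33 (SE 0.0659, adjusted p = 1.47e-13 by edgeR).

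APOL6, the member linked to apoptosis, was the highest in CPM, with 64.9, 70.7 and 72.5 in control, 909, 881 and 962 at 6 h and 137, 131 and 132 at 24 h. Here too each 6 h library lay above each 24 h library and each 24 h library above each control. The gene rose 13.2-fold at 6 h, with 3.73 as its log2 fold change (SE 0.0447, adjusted p = 2.46e-18 by edgeR). It remained 1.92-fold above control at 24 h, with 0.94 (SE 0.0438, adjusted p = 8.81e-11 by edgeR). Between the times the log2 fold change was -2.78 (SE 0.0409, adjusted p = 1.31e-16 by edgeR), a 6.87-fold drop.

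APOL4 had no read in any control or 24 h library and 0, 1 and 2 reads in the 6 h libraries. It did not pass the filter on low counts and was not tested. A count of 0 over the group allows up to 0.0578 CPM in control and 0.0281 CPM at 24 h, and the 3 reads at 6 h correspond to 0.0420 CPM. The value at 6 h is the observed level and not an upper limit. The limits for control and 24 h cover counting error only, and no fold is given. APOL5 had 1 read over all 9 libraries, in a 24 h library.

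**Figure D1:**
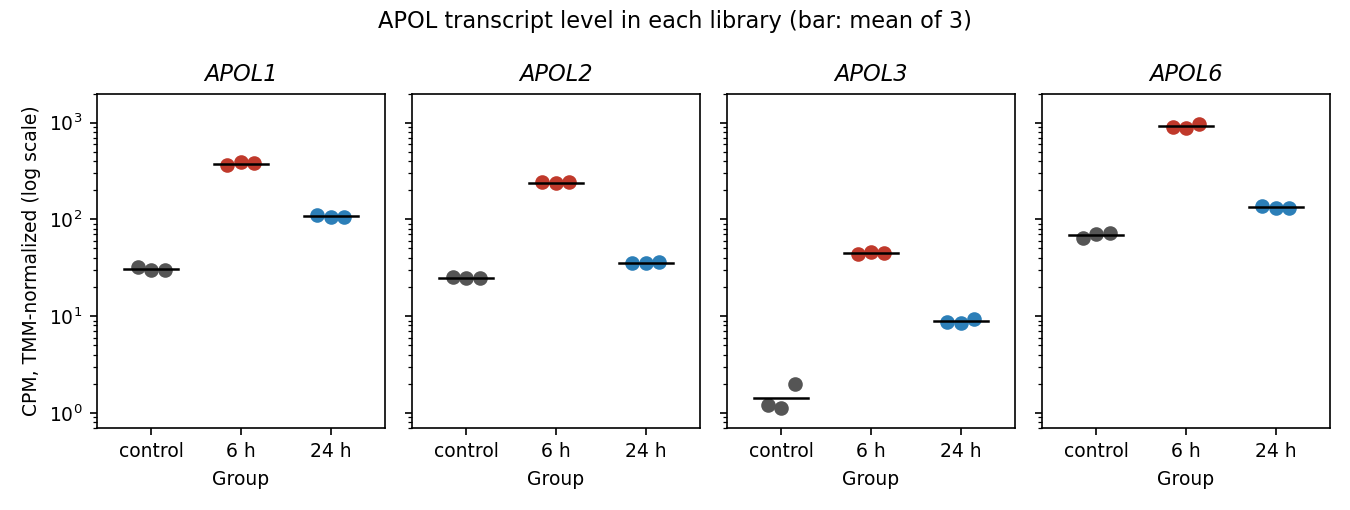
Level of APOL1, APOL2, APOL3 and APOL6 (y axis, TMM-normalized CPM, log scale) in each of 3 control, 3 6 h and 3 24 h libraries (points), with group means (bars). In each gene the 6 h points are highest and the 24 h points lie between them and control, close to control for APOL2 (35.7 against 25.04 CPM) and farther from it for APOL3 (8.90 against 1.44 CPM).

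**Figure D2:**
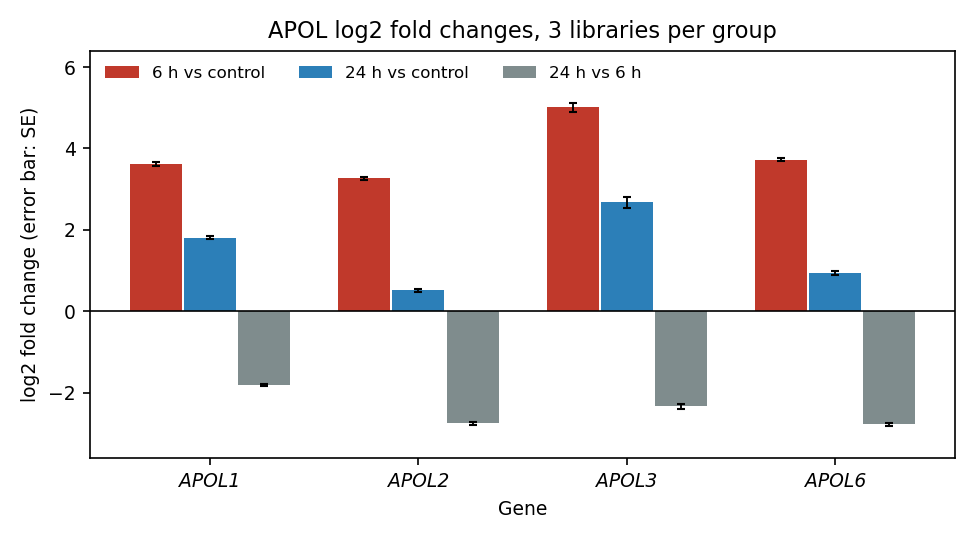
Log2 fold changes (y axis) of 4 APOL genes in 3 comparisons of 3 libraries each (colours), with standard errors. All 4 are above 0 against control at both times and below 0 from 6 h to 24 h, and APOL3 has the tallest bars against control (5.01 and 2.68).

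These values were set against all tested genes. By edgeR 17.5% of tested genes were called higher at 6 h and 24.7% at 24 h, and 30.6% were called lower at 24 h than at 6 h. In the opposite directions the shares were 15.4%, 25.3% and 26.6%. Genes called higher at both times and lower at 24 h than at 6 h made up 3.39%, or 575 genes, and the 4 tested members were among them. For comparison, 21.3% of tested genes had all 3 libraries at 6 h above all 3 controls, 30.0% had this at 24 h, and 32.4% had all 3 libraries at 6 h above all 3 at 24 h. At 6 h 61 genes had a larger log2 fold change than APOL3, 130 than APOL6, 139 than APOL1 and 158 than APOL2. At 24 h the order of the members changed: 136 genes stood above APOL3, 314 above APOL1, 995 above APOL6 and 2296 above APOL2. In the drop from 6 h to 24 h APOL6 and APOL2 ranked near the end of the table, with 35 and 39 genes falling further, followed by APOL3 with 73 and APOL1 with 167. Both comparisons against control use the same 3 control libraries.

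**Figure D3:**
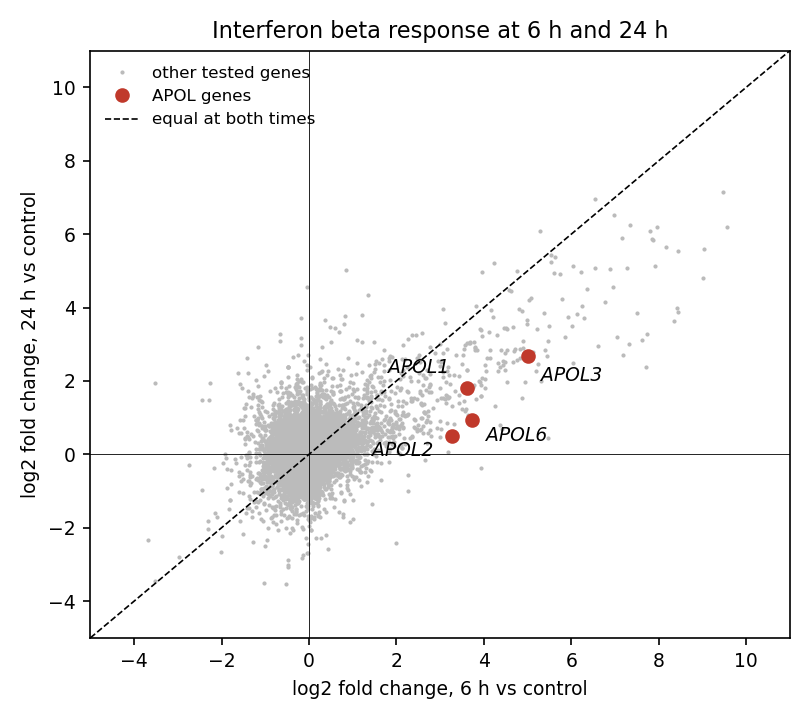
Log2 fold change at 24 h (y axis) against that at 6 h (x axis), both against the same 3 controls, for all 16964 tested genes (grey) and 4 APOL genes (red), with the line of equal change (dashed). The APOL genes lie below the line: APOL1 at 3.62 and 1.81, APOL2 at 3.26 and 0.51, APOL3 at 5.01 and 2.68, APOL6 at 3.73 and 0.94.

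The members lost different parts of their early rise. Of the CPM gained at 6 h, the 24 h libraries still held 22.2% ± 0.637 for APOL1 (SD over the 3 libraries at 24 h, against the means of the other groups). APOL3 still held 17.2% ± 1.01, APOL6 7.55% ± 0.395 and APOL2 4.96% ± 0.0905. The ranges did not overlap between any pair of members. These parts depended on the scaling: by the authors' normalized values they were 28.8% for APOL1, 21.4% for APOL3, 11.4% for APOL6 and 9.39% for APOL2, in the same order and again without overlap. Ratios of counts within a library do not depend on the scaling between libraries. There were 1.22 ± 0.0352 APOL1 counts per APOL2 count in control, 1.57 ± 0.0704 at 6 h and 3.01 ± 0.0775 at 24 h (SD, n = 3 each). APOL1 counts per APOL6 count were 0.444 ± 0.0487 in control and 0.412 ± 0.0247 at 6 h, ranges that overlapped, and 0.806 ± 0.00663 at 24 h. APOL6 counts per APOL2 count, by contrast, were 3.82 ± 0.0975 at 6 h and 3.74 ± 0.111 at 24 h, again overlapping, after 2.77 ± 0.213 in control.

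Levels of different genes were compared per kilobase of exon, with all exons of a gene merged. In control APOL1 was highest at 8.71 ± 0.432 CPM per kb (SD, n = 3), then APOL2 at 7.19 ± 0.154, APOL6 at 6.85 ± 0.394 and APOL3 at 0.244 ± 0.0796. The control ranges of APOL2 and APOL6 overlapped. At 6 h the order was APOL1 at 107.1 ± 3.29, APOL6 at 90.6 ± 4.03, APOL2 at 68.99 ± 1.40 and APOL3 at 7.61 ± 0.156, with no overlap between neighbours in this order. At 24 h it was APOL1 at 30.5 ± 0.627, APOL6 at 13.2 ± 0.331, APOL2 at 10.3 ± 0.0560 and APOL3 at 1.51 ± 0.0745, again without overlap. The order of APOL2 and APOL6 rests on the length used. With the longest transcript of each gene APOL2 had 9.18 to 9.55 in control against 6.41 to 7.16 for APOL6, and the ranges overlapped at 6 h (87.6 to 91.2 against 87.1 to 95.02) and at 24 h (13.2 to 13.4 against 12.9 to 13.6).

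The summed level of the 5 genes was 22.998 ± 0.237 CPM per kb in control, 274 ± 5.52 at 6 h and 55.5 ± 0.889 at 24 h. APOL1 made up 37.9% ± 1.64 of this sum in control, 39.05% ± 1.19 at 6 h and 55.05% ± 0.326 at 24 h. APOL2 made up 31.3% ± 0.446, 25.1% ± 0.430 and 18.5% ± 0.381. APOL6 made up 29.8% ± 1.88, 33.03% ± 0.974 and 23.8% ± 0.218, and APOL3 1.06% ± 0.342, 2.78% ± 0.0608 and 2.72% ± 0.145. By the exact two-sided permutation test over libraries, 10 of 12 comparisons of shares gave p = 0.1, the smallest that 3 against 3 allows, and 0.12 after Benjamini-Hochberg adjustment over the 12. The share of APOL1 at 6 h against control (exact permutation p = 0.4) and that of APOL3 at 24 h against 6 h (exact permutation p = 0.6) belonged to groups that overlapped. No share test could pass 0.05 in this design.

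**Figure D4:**
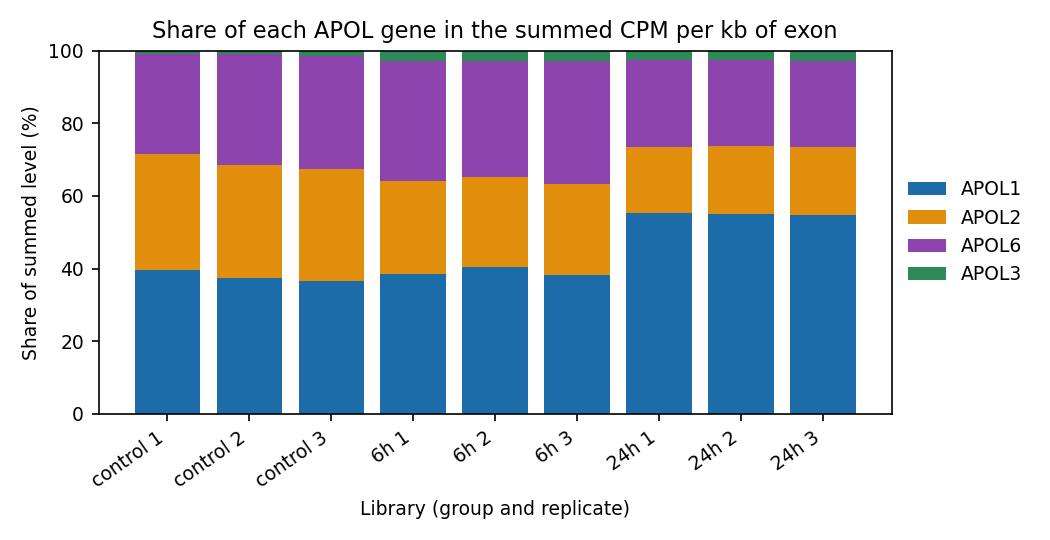
Share of each APOL gene (colours) in the summed CPM per kb of exon (y axis, percent) in each of the 9 libraries (x axis). APOL1 takes 54.7% to 55.3% in the 24 h libraries against 36.6% to 40.4% in the other 6, and APOL2 takes 18.04% to 18.7% against 24.8% to 31.7%.

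The estimated counts differed in kind between the members. APOL6 had whole numbers (within 1e-06) in 9 of 9 libraries, APOL1 in 1, and APOL2 and APOL3 in 0. How the fractions arose was not tested, and the sources used here do not give the counting settings. APOL1, APOL2 and APOL3 resemble one another in sequence, and how much the counting of shared reads affects their values was not measured here.

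The genes around the members were examined by position. Within 500 kb of the span from APOL6 to APOL1 the table lists 50 other genes, of which 17 were tested. At 6 h 2 were called higher, 3 lower and 12 did not pass by edgeR, where 17.5% of all tested genes were called higher and 15.4% lower. At 24 h 3 were called higher, 5 lower and 9 did not pass, against 24.7% and 25.3% of all tested genes. With library size only the counts at 6 h were 1 higher and 10 lower, under a median of -0.14 over all genes, and at 24 h 5 higher and 4 lower. That setting called 7861 of all 16964 tested genes at 6 h, 21.2% of them higher, and 8578 at 24 h, 64.1% of them higher. By the authors' normalized values 8 were called higher and 1 lower at 24 h. Over all tested genes these values with a pseudocount of 1 gave 8896 calls at 24 h, 96.4% of them higher. Log2 fold changes of the 17 ran from -2.45 to 0.68 at 6 h, below the 3.26 of APOL2, and from -1.32 to 0.72 at 24 h.

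MYH9, the heavy chain of nonmuscle myosin IIA, ends 13749 bases from APOL1. It stood at 938 ± 29.9 CPM in control, 964 ± 10.9 at 6 h and 733 ± 12.9 at 24 h (SD, n = 3 each). Its log2 fold change was 0.039 (adjusted p = 0.299 by edgeR) at 6 h, or -0.10 and called lower with library size only. At 24 h it was -0.36 (adjusted p = 2.18e-08 by edgeR), a call that ended in the authors' normalized table at 0.083, where the median of all genes was 0.37. RBFOX2, a splicing regulator that lies between APOL6 and APOL3, had log2 fold changes of 0.0014 at 6 h and -0.51 at 24 h. The value at 6 h was -0.14 and called lower with library size only, and the call at 24 h ended in the normalized table at -0.067. MB, the myoglobin gene 10494 bases from APOL6, had 2.30 ± 0.563 CPM in control, 1.53 ± 0.151 at 6 h and 0.907 ± 0.108 at 24 h. Its log2 fold change at 24 h was -1.32 (adjusted p = 0.000115 by edgeR). RASD2, low at 1.13 ± 0.319 CPM in control, was called lower at 6 h at -2.45 (adjusted p = 0.000269 by edgeR) and at 24 h at -0.96. HMOX1 was called lower at 6 h at -1.02 (adjusted p = 0.000607 by edgeR) and was not called at 24 h by edgeR (0.12). MCM5, a subunit of the replicative helicase, was called higher at 24 h at 0.72 (adjusted p = 4.47e-11 by edgeR), above the 0.51 of APOL2 at that time. NDUFA9P1, a pseudogene, was called higher at 6 h at 0.68 (adjusted p = 0.0084 by edgeR) and at 24 h at 0.45. The calls of RASD2 and NDUFA9P1 at 24 h ended in DESeq2. IFT27 was called higher at 24 h at 0.58 and not at 6 h (0.059).

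**Figure D5:**
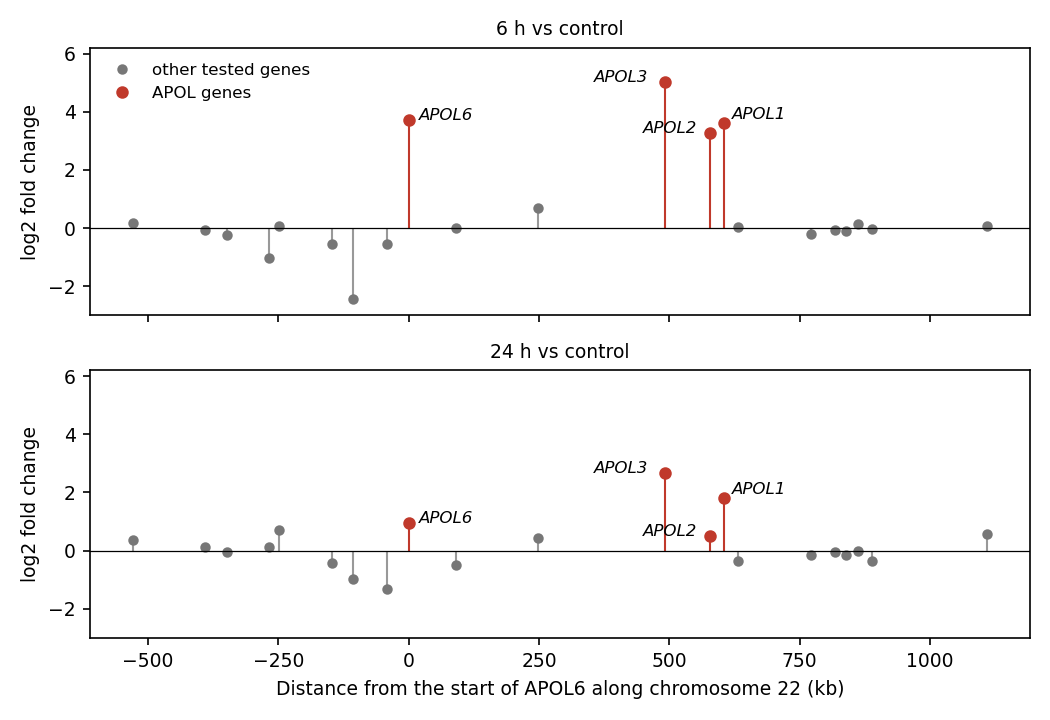
Log2 fold change (y axis) of tested genes within 500 kb of the APOL genes against the distance of their start from that of APOL6 along chromosome 22 (x axis, kb), at 6 h (upper panel) and 24 h (lower panel), 3 libraries per group. The APOL genes (red) stand at 3.26 to 5.01 at 6 h and the other genes (grey) at -2.45 to 0.68; at 24 h APOL2, at 0.51, lies within the range of the other genes.

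For each tested member, the genes nearest in log2 fold change at 6 h and 24 h were named from 3371 other genes called at both times with at least 5 CPM in a group. The measure was the Euclidean distance over these 2 values, which rest on 3 groups. Nearest to APOL1 were VSNL1, a neuronal calcium sensor gene (distance 0.022), PARP12, an ADP-ribosyltransferase (0.138), and DLL1, a Notch ligand (0.178). Nearest to APOL3 were the helicase gene HELZ2 (0.102), the antiviral GTPase MX2 (0.200) and AC116407.2 (0.255). Nearest to APOL6 were CSF1, the macrophage growth factor (0.168), IRF1-AS1 (0.317) and SLFN5 of the Schlafen family (0.374). Nearest to APOL2 were HEG1, a membrane receptor (0.300), GBP3, a guanylate-binding protein (0.363), and IRF1 (0.394). DLL1 and AC116407.2 had control means of 0.418 and 0.202 CPM, near the floor, and passed the filter on low counts through the treated groups. The SEs at 6 h were 0.263 for DLL1, 0.344 for AC116407.2 and 0.161 for VSNL1, each above the gene's distance. The distance takes no account of SE, so such ranks are uncertain.

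Genes of interferon signalling were counted from a list of 14, all tested. Besides genes that carry the signal, the list holds its inhibitors USP18, SOCS1 and SOCS3 and the induced gene ISG15, each called higher at 6 h. At 6 h 11 were called higher, 1 lower and 2 did not pass, with a median log2 fold change of 2.96, against -0.0053 over all tested genes. At 24 h 9 were higher, 2 lower and 3 did not pass, with a median of 0.61, and 24 h stood below 6 h for 11 and above it for 2. Of all tested genes 17.5% were called higher and 15.4% lower at 6 h, and 24.7% and 25.3% at 24 h. From 6 h to 24 h 30.6% were called lower and 26.6% higher. STAT2, part of the factor that binds interferon response elements, had log2 fold changes of 3.96 (SE 0.0603) at 6 h and 2.07 (SE 0.0626) at 24 h, beside 3.62 and 1.81 for APOL1. IRF1, a transcription factor that binds similar elements, had 14.9 ± 0.891 CPM in control, 113 ± 1.62 at 6 h and 24.5 ± 0.725 at 24 h, with log2 fold changes of 2.93 (SE 0.0473) and 0.73 (SE 0.0538). IRF2, which competes with IRF1, went from 2.35 (SE 0.0554) to 0.50 (SE 0.0625). All 6 of these values passed by edgeR.

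Partners of APOL proteins were taken from a list of 15, of which 12 were tested. At 6 h 6 were called higher, 1 lower and 5 did not pass, and at 24 h 6, 2 and 4, with medians of 0.20 and 0.16. Of all tested genes 17.5% were called higher and 15.4% lower at 6 h, and 24.7% and 25.3% at 24 h. With library size only 5 were called lower at 6 h, and by the authors' normalized values none were (0 at either time). Library size only called 7861 of all 16964 tested genes at 6 h, 21.2% of them higher. By the normalized values with a pseudocount of 1, 1826 were called at 6 h and 8896 at 24 h, 88.4% and 96.4% of them higher. HP and HPR, which encode haptoglobin and the related protein that joins APOL1 on the trypanosome-killing particle, had no read in any library. The guanylate-binding proteins, which coat cytosolic bacteria and make them accessible to APOL3, accounted for the larger rises. GBP4 had log2 fold changes of 8.44 (SE 0.0945) and 3.88 (SE 0.151), GBP1 5.30 (SE 0.0558) and 1.99 (SE 0.0684), and GBP3 3.15 (SE 0.0478) and 0.86 (SE 0.0501) at 6 h and 24 h. GBP5 had 0.0168 CPM in control, 1.06 at 6 h and 0.0232 at 24 h. It passed the filter on low counts through the 6 h group alone, so its higher call at 6 h rests on control values near the floor. NCS1, a calcium sensor that binds APOL3, had -0.34 (adjusted p = 7.56e-05 by edgeR) at 6 h and -0.51 (adjusted p = 4.77e-07 by edgeR) at 24 h, calls that ended in the normalized table at -0.17 and -0.072. PI4KB, the lipid kinase that NCS1 activates, had -0.094 (adjusted p = 0.0839 by edgeR) at 6 h, or -0.23 and called lower with library size only, and 0.077 without a call in the normalized table. Without 6 h library 1 PI4KB was called lower at 6 h at -0.13. At 24 h it was called higher, at 0.13 against control (adjusted p = 0.00989 by edgeR) and 0.22 against 6 h (adjusted p = 9.88e-05 by edgeR).

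APOL6 was set beside 24 regulators of cell death, of which 21 were tested. At 6 h 14 were called higher, 4 lower and 3 did not pass, with a median of 0.48, where 17.5% of all tested genes were called higher and 15.4% lower. At 24 h 9 were higher, 6 lower and 6 did not pass, against 24.7% and 25.3%, with a median of 0.10. From 6 h to 24 h 14 fell and 2 rose, where 30.6% of all tested genes were called lower and 26.6% higher. By the normalized values 1 was called lower at 6 h and 0 at 24 h, where 88.4% and 96.4% of all calls over the whole table were higher. BAK1, a pore-forming executioner of the BCL2 family, rose by 1.95 (SE 0.0357) at 6 h and stood at 0.24 (SE 0.0376) at 24 h, both passing by edgeR. XAF1, an antagonist of the apoptosis inhibitor XIAP, rose by 6.21 and 4.97, and CASP1, an inflammatory caspase, had 0.183 ± 0.126 CPM in control, 6.57 ± 1.002 at 6 h and 1.89 ± 0.129 at 24 h. No control library held more than 0.327 CPM of CASP1, which passed the filter on low counts through the treated groups. BIK, a BH3-only protein, was lower at 6 h with -0.85 (adjusted p = 1.16e-05 by edgeR). From 6 h to 24 h it rose by 0.80 (adjusted p = 4.87e-06 by edgeR), to 11.5 ± 0.324 CPM against 11.9 ± 1.31 in control. MCL1, a survival protein, was called higher at 6 h at 0.40 and lower at 24 h at -0.49, the latter not called in the normalized table (-0.048). MLKL, the effector of necroptosis, rose by 1.83 at 6 h and was called lower at 24 h at -0.21, which turned to 0.23 without a call in the normalized table.

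Apolipoproteins of other families, with their receptors and transporters, made a list of 22, of which 11 were tested. At 6 h 2 were called higher, 1 lower and 8 did not pass, and at 24 h 4, 3 and 4, with medians of -0.0079 and -0.045. The shares of all tested genes were 17.5% higher and 15.4% lower at 6 h and 24.7% and 25.3% at 24 h, which this list's share of higher calls at 6 h and of lower calls at 24 h came close to. The median at 6 h was 0.15 in the normalized table and -0.15 with library size only, and the median at 24 h was 0.28 and 0.032. ABCA1, the transporter that loads cholesterol onto apolipoproteins, rose by 1.25 (SE 0.0821) and 1.61 (SE 0.0767). CLU, which encodes clusterin, stood at 98.5 ± 4.48 CPM in control and 99.2 ± 1.93 at 6 h and rose to 191 ± 5.24 at 24 h. With library size only it was called lower at 6 h (-0.13). LRP1, an endocytic receptor, was called lower with -0.30 and -0.56, calls that ended in the normalized table at -0.13 and -0.12. APOLD1, an endothelial gene with a domain like that of the APOL proteins and located on another chromosome, had 5.23 ± 0.462 CPM in control, 3.997 ± 0.213 at 6 h and 3.38 ± 0.464 at 24 h. It was called lower at 24 h at -0.62 (adjusted p = 0.00106 by edgeR), but not in the normalized table (-0.16). At 6 h it had -0.40 (adjusted p = 0.0334 by edgeR), a call that ended when control library 1 was left out (-0.33, adjusted p = 0.125 by edgeR). It also ended when any one of control library 2 (adjusted p = 0.0519 by edgeR), 6 h library 2 (0.0772) or 6 h library 3 (0.0781) was left out. The method mattered too: the call at 6 h ended in DESeq2 (adjusted p = 0.115 by DESeq2) and without the filter on low counts (adjusted p = 0.0804 by edgeR). In the normalized table with a pseudocount of 1 APOLD1 was at -0.18 at 6 h, without a call.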

How the data were processed

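RNA sequencing libraries of SUIT2 were grouped by their titles. The tools Partek and STAR 2.7.8a and the build hg38 are named, per the submitters' processing notes. The sources used here do not give the annotation or the strand settings. The authors deposited estimated counts per gene, which were rounded to whole numbers for testing, and a TMM-normalized signal, for which 0.0001 was added to each count and 1 multiplier applied per library (checked against the counts).

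All genes were fitted in 1 model over 9 libraries with edgeR 4.0.16 (R 4.3.3): TMM factors, minimum count 10, minimum total 15, quasi-likelihood test, Benjamini-Hochberg adjustment, threshold 0.05. SEs were obtained from each log2 fold change and the root of its F statistic. The test was checked on simulated data. Exon lengths came from GENCODE 29. Coordinates are 1-based: starts as deposited, ends 1 base before the deposited stops. The named genes were the APOL genes whatever their result and the 3 nearest in response to each tested member. Up to 4 called genes per list and comparison were also named, with those bearing on a described role. Named neighbours were those called against control with the largest absolute log2 fold changes, the nearest gene on each side and RBFOX2. The members and lists were chosen with earlier results of these data known. Alternatives were DESeq2 1.42.0, limma 3.58.1 (voom, and on log2 of the signal with pseudocounts of 1 and 0.1), other scalings, filters, thresholds and sets of libraries. Promoter and protein sequences of the members were not used here. Some genes of the lists are counted but not reported here by name.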

Additional observations from a re-analysis of the deposited data

Results flagged for a closer look

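The response of 4 APOL genes differed between 6 h and 24 h by the test of the difference itself, the direct comparison of the treated groups in edgeR (quasi-likelihood). The log2 fold change from 6 h to 24 h was -1.81 for APOL1, -2.75 for APOL2, -2.33 for APOL3 and -2.78 for APOL6, with Benjamini-Hochberg adjusted p-values of 1.86e-15, 2.31e-17, 1.47e-13 and 1.31e-16. Each of the 3 libraries at 24 h lay below each of the 3 at 6 h for all 4 genes. The same test called 30.6% of all tested genes lower.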

How the results depend on the processing

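APOL1, APOL2, APOL3 and APOL6 kept their direction and stayed past the threshold in 240 of 240 alternatives (20 for each of 12 member comparisons), with 1.76e-06 as the highest adjusted p. These include a threshold of 0.01 applied to the main fit, which is not a refit. Leaving out each library in turn gave 4.85 to 5.29 for APOL3 at 6 h and 2.51 to 2.95 at 24 h, and moved the other members by less. Numbers of genes called over the whole table were 5576 at 6 h, 8475 at 24 h and 9704 between the times. Without 1 library they were 4722 to 5489, 7497 to 8981 and 8847 to 9739. By the deposited normalized values there were 1826 calls (pseudocount 1) and 1854 calls (0.1) at 6 h, and 5849 and 5636 between the times; the cause was not tested. The share of calls that were higher was 53.2%, 49.5% and 46.6%, against 21.2%, 64.1% and 76.9% with library size only and 88.4%, 96.4% and 83.3% in the normalized table with a pseudocount of 1. With a replicate block 5149, 8133 and 9393 genes were called. Same-numbered libraries of different groups correlated at -0.0588 to 0.0214 in their deviations and others at -0.0277 to 0.0712. No effect shared by same-numbered libraries was seen, but these values cannot tell whether such libraries were set up together. With the longest transcript as length, the shares in control, at 6 h and at 24 h moved to 34.8%, 28.1% and 20.5% for APOL2, 1.48%, 3.89% and 3.79% for APOL3 and 25.6%, 28.5% and 20.4% for APOL6, by the change of length alone. Of the 6 h rise, the part left at 24 h was 28.8% for APOL1, 9.39% for APOL2, 21.4% for APOL3 and 11.4% for APOL6 by the deposited normalized values, and 26.6%, 6.54%, 20.2% and 9.35% with library size only, alternatives chosen after seeing the data; the scaling alone moved them. Promoter motifs and protein identity were not run. Depth limits APOL4, with 3 reads in all.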

Other observations

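Z95114.3, a gene model on the minus strand like APOL3 and 979 bases beyond the end of that gene, was not tested and was singled out after its values were seen. It had 0 counts in each control library, 3, 9 and 13 at 6 h and 2, 5 and 3 at 24 h, or 0.329 ± 0.118 CPM at 6 h and 0.104 ± 0.0722 CPM at 24 h (SD, n = 3). The lowest 6 h library (3 counts, 0.195 CPM) and the highest 24 h library (5 counts, 0.185 CPM) were too close to order at this depth.

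In the authors' normalized table control library 2 and 6 h library 2 carry the same multiplier, 0.0476, although their totals are 19632741 and 23447549 estimated counts.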
